A study of Mus musculus with 9 samples.

Results

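Small nucleolar RNAs (snoRNAs) and the related small Cajal body RNAs (scaRNAs) were followed in mouse embryonic stem cells (mESC) across 3 culture media. Their genes were chosen by annotation and level, as the rows of the deposited table with the biotype snoRNA or scaRNA and a mean above 5 over all 9 samples. These were 287 of the 702 snoRNA rows, in a table of 29069 genes of which 18156 had a mean above 5. No row carried the biotype scaRNA, so the scaRNAs were listed among the snoRNAs. They formed a group of 21, namely 9 genes with a Scarna symbol and the others that the GENCODE M21 annotation types as scaRNA. By symbol, 23 members were named Snora, 48 Snord and 216 otherwise, 191 of them with a Gm model name. Members were thus selected on their mean level over all media together, not on a difference between media. Just below it were Gm23910 at 4.78, Gm26158 at 5.0 and Gm25108 at 5.0, and just above it Gm25973 at 5.11, Gm24958 at 5.22 and Gm23939 at 5.33. The other 415 snoRNA rows were left out, and the members held 99.95% of the summed snoRNA level. In 20 members the mean was 5 or less in at least 1 medium, and in 5 at least 1 sample was at 0.

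The established mESC line D3 was used, and RNA was taken after 24 h. Ground-state medium (GS) was serum-free N2B27 with the MEK inhibitor PD0325901 at 1 µM, the GSK-3 inhibitor CHIR99021 at 3 µM and leukaemia inhibitory factor (LIF) at 20 ng/mL. Differentiation medium (DM) held 10% fetal bovine serum and none of these agents, and the NO medium was DM with the nitric oxide donor DETA/NO at 250 µM. Each medium had 3 replicates of 1 cell line, so the p-values measure the spread between these cultures, and serum and the loss of the inhibitors cannot be told apart in DM against GS.

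snoRNAs are short non-coding RNAs of the nucleolus that guide chemical modification of ribosomal RNA. Box C/D snoRNAs carry a C box near the 5′ end and a D box near the 3′ end and direct 2′-O-methylation through the methyltransferase fibrillarin (Fbl). Box H/ACA snoRNAs are longer, end in an ACA a few bases before the 3′ end and direct pseudouridylation through dyskerin (Dkc1). scaRNAs have the same boxes but act in Cajal bodies, where they guide modification of spliceosomal RNAs. Most are not transcribed on their own and are cut out of introns of a host gene, often one for a ribosomal protein or a nucleolar protein.

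The 9 RNAs printed next carry the main patterns. Snord45b, Snord110 and Snord83b are box C/D RNAs with wide differences between replicates, and Snora31 is a box H/ACA RNA with the same feature. Snora34, Scarna8, Gm22767, Gm25852 and Gm24119 were called higher in NO than in DM. The letters are those of the GENCODE M21 transcripts (GRCm38), 5′ to 3′. Capitals mark TGATGA (C box) within the first 20 bases, CTGA (D box) within the last 16 bases and ACA within the last 7 bases but not in the last 2. Only the strand of the transcript was searched.
Snord45b: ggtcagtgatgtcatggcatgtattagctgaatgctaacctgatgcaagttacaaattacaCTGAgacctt
Snord110: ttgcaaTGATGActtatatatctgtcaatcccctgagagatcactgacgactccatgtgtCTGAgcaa
Snord83b: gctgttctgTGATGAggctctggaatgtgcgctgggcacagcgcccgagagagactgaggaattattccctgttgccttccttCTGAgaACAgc
Snora31: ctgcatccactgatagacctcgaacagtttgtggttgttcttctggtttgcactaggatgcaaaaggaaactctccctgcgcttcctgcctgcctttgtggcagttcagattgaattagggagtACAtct
Snora34: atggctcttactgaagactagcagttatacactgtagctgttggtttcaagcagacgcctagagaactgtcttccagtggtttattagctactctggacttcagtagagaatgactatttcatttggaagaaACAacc
Scarna8: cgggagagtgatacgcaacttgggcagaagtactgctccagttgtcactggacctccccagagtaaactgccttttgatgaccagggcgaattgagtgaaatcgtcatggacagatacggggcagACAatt
Gm22767: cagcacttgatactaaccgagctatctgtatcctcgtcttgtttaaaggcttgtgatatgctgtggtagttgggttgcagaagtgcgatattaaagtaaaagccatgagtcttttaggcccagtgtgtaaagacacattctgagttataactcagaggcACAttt
Gm25852: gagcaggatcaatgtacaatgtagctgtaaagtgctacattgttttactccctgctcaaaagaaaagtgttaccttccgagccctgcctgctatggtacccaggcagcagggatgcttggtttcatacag
Gm24119: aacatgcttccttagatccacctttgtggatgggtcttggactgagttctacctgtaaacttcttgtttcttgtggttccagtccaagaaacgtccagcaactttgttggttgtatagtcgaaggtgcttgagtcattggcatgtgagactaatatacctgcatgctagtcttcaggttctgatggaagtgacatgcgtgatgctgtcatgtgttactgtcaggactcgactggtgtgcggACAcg

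Snord45b lies at chr3:153910563-153910633 on the minus strand and is 71 bases long. Snord110 lies at chr2:130275506-130275573 on the plus strand, in an intron of Nop56. Snord83b lies at chr15:80078498-80078591 on the minus strand, in an intron of Rpl3. Snora31 lies at chr14:75847905-75848034 on the plus strand in an intron of Tpt1, and Snora34 at chr15:98519716-98519853 on the minus strand in an intron of Kansl2. Scarna8 lies at chr4:86586453-86586583 on the minus strand, in an intron of Haus6. Gm22767 lies at chr4:132838383-132838547 on the minus strand, in an intron of Ppp1r8. Gm25852 lies at chr6:97547438-97547567 on the minus strand, in an intron of Frmd4b, and Gm24119 at chr10:91118291-91118536 on the minus strand, in an intron of Slc25a3. In Snord83b the ACA close to the end lies beside a D box. In Snord45b TGATGA was absent from the window, and in Gm25852 none of the motifs was found.

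Box motifs followed the names. ACA stood in its window in 100% of the 23 Snora members and in 4.2% of the 48 Snord members. CTGA was found in 91.7% and TGATGA in 60.4% of the Snord members. Of all 1507 snoRNA transcripts of the annotation, 43.5% held the ACA, 32.2% the CTGA and 21.7% the TGATGA in the same windows, against 2.0%, 1.6% and 0.1% of 1383 snRNA transcripts. Of the 284 members matched to the annotation by identifier, 77 had both C and D motifs, 126 the ACA motif without a D motif, and 81 fell in neither class. The C and D class had a median length of 76 bases and the ACA class one of 133 bases. Over the members with a length, the median was 129 bases and the range 52 to 414. Introns of a same-strand gene held 180 members, 55 overlapped an annotated exon of such a gene, and 49 had no same-strand gene around them. In all, 171 host genes were found. Reads on more than 1 gene and reads with several positions were left out by the authors, so RNAs in exons and RNAs with near-identical copies, such as the U3 genes, are uncertain. Use of the strand was not stated, and 20 members overlap a gene on the other strand.

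A few RNAs held a large share of the signal. Levels are given as normalised counts, that is read numbers after scaling by a size factor per library. Rnu3a, a U3 RNA that takes part in early cleavage of the ribosomal RNA precursor, had the highest mean at 117039. Its values were 93645, 123089 and 154854 in GS, 140926, 92115 and 56908 in DM, and 128048, 132481 and 131287 in NO. Gm24119, a box H/ACA RNA by its motif, had a mean of 93585. Whether division by length makes these genes comparable was not tested. Per 100 bases, the mean level was 54691 for Rnu3a, 38043 for Gm24119 and 30888 for Snord83b. These first 2 RNAs held 27.0% of the summed level of the members, and the 10 highest held 47.0%. Snora names held 10.7% of it, Snord names 27.1% and the other names 62.3%. The other RNAs among the 10 highest were Gm25822 (Snora57 in the later annotation), Snord118 (U8, needed to mature the large-subunit ribosomal RNAs), Gm24494, Gm24044, Gm26205, Snord35a and Snora74a, with means of 15608 to 20617. A mean above 1000 was reached by 108 members and one above 50 by 208.

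The estimated depth was 14307523 to 27061091 assigned reads per sample, and column totals were 18290445 to 20508679 after the scaling by the authors. The defining mESC markers were high in all samples, with Pou5f1 from 4276 to 15354. The lowest value was that of NO replicate 2, in which the sum of the 10 markers was 50925, against 81127 to 95955 in the other samples. In NO vs DM, 3 of these 10 were lower by limma's adjusted p. In log2, Pou5f1 had -0.95 (adjusted p = 0.0349), Utf1 -1.59 (adjusted p = 0.0107) and Lin28a -1.14 (adjusted p = 0.00379). Utf1 and Lin28a were past 2-fold. In DM vs GS, Utf1 (2.18, adjusted p = 0.00198) and Lin28a (0.72, adjusted p = 0.0322) were higher and Nanog (-0.80, adjusted p = 0.0311) was lower. In NO vs GS, 0 of the 10 passed. Of 7 fibroblast markers, Postn and Lum did not exceed 3 in any sample. The sum of that list was 99 to 122 in GS, 231 to 249 in DM and 213 to 296 in NO. Thy1 was the highest of the list in every sample, at 59 to 211. Col1a1 was higher in NO, with 39, 88 and 39. Its log2 fold change was 1.49 against GS (adjusted p = 0.0207) and 1.56 against DM (adjusted p = 0.0239). The other tested genes of this list did not share that pattern. Thy1 was above GS in both media with serum, by 1.7 in DM (adjusted p = 0.000303) and 1.47 in NO (adjusted p = 0.000676). Col3a1, at 2, 8 and 5 in NO, had -1.0 against GS and -1.25 against DM, and neither passed. Col1a2 in NO had -0.32 against GS and 0.49 against DM, and neither passed. Of 3 blood markers, Ptprc and Hbb-bs stayed at 2 or below, while the sum, nearly all Cd68, was 193 to 247 in GS, 280 to 397 in DM and 451 to 677 in NO. The part of these markers in the results was not tested. In RNA from whole cultures, fewer cells of a type and less RNA per cell cannot be told apart.

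The share of snoRNAs and scaRNAs in a library was widely spread within each medium. The members took 3.058%, 4.121% and 4.781% of the column total in GS, 3.570%, 3.724% and 2.069% in DM, and 4.002%, 6.565% and 4.466% in NO. The mean of the GS libraries was 3.99% ± 0.87, that of the DM libraries 3.12% ± 0.915 and that of the NO libraries 5.02% ± 1.37 (SD, n = 3). GS overlapped with both other media, and each NO library was above each DM library. DM replicate 3 was the lowest library and NO replicate 2 the highest. Of the 287 members, 185 had their lowest value in DM replicate 3 and 123 their highest in NO replicate 2, counting ties.

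**Figure D1:**
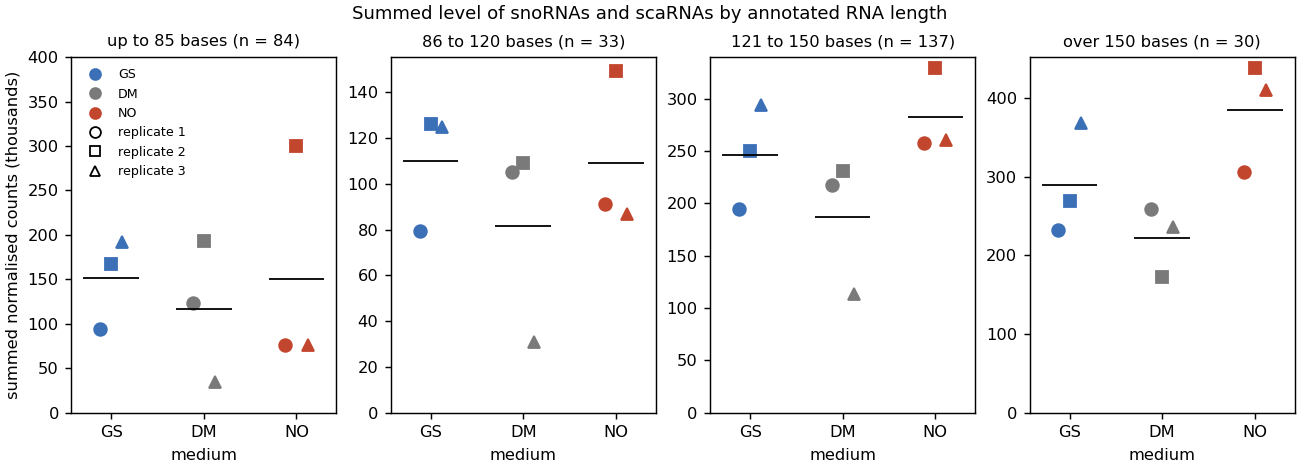
Summed normalised counts (divided by 1000, linear axis from 0) of the members in 4 classes of annotated length, for the 3 replicates of GS, DM and NO, with the mean of each medium as a line. DM replicate 3 (grey triangle) was far below the other DM replicates in the 3 classes up to 150 bases and not in the class over 150 bases, and NO replicate 2 (red square) was the highest sample in every class.

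This difference between libraries ran with RNA length. Each value was compared with the mean of its gene over the 9 samples on the log2 scale. In DM replicate 3 the median deviation was -1.48 for the 84 members of up to 85 bases, -1.27 for the 33 of 86 to 120 bases, -0.85 for the 137 of 121 to 150 bases and 0.09 for the 30 longer ones. In NO replicate 2 it was 1.13, 0.67, 0.38 and 0.56 in the same classes. DM replicate 2 went from 0.64 in the shortest class to -0.41 in the longest, and NO replicate 1 from -0.41 to -0.13. The shortest class was below its mean in GS replicate 1, at -0.39, and above it in the other GS replicates, at 0.51 and 0.52. Over all tested genes the median deviations lay between 0 and 0.02 in size. Between replicates of 1 medium, the log2 ratio ran with length in most pairs. Spearman's rho across 206 members, which share a pair of libraries and are not independent replicates, was -0.60 for DM replicate 2 over 3, -0.56 for NO replicate 2 over 3 and 0.58 for GS replicate 1 over 2.

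**Figure D2:**
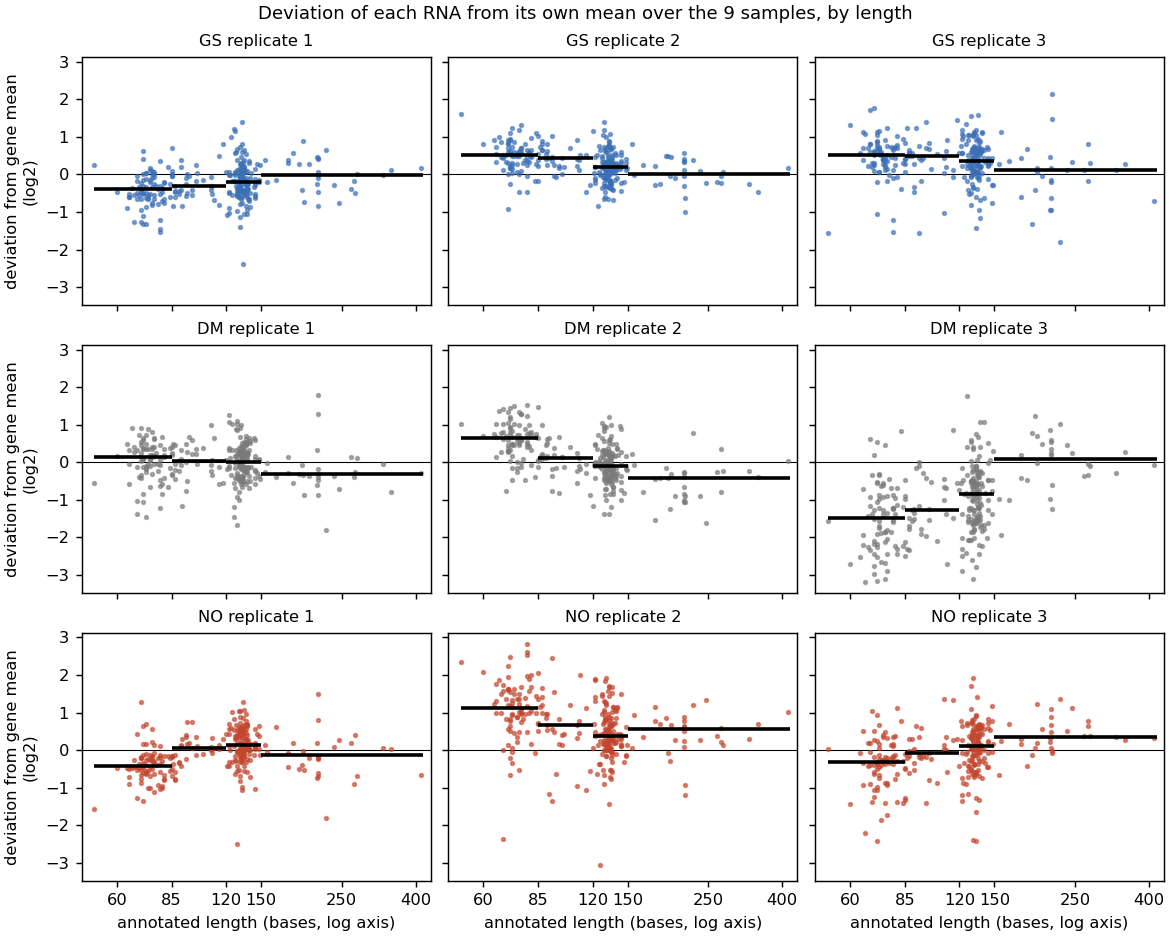
Deviation of each RNA from its own mean over the 9 samples (log2) against its annotated length in bases (log axis), 1 panel per library, with the median of 4 length classes as black lines. The medians climb with length in DM replicate 3, from -1.48 to 0.09, and fall in DM replicate 2, from 0.64 to -0.41.

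Short box C/D RNAs showed this most. Snord45b had values of 4398, 9206 and 8335 in GS, 7623, 13268 and 540 in DM, and 3200, 26905 and 906 in NO, so its highest value was 49.8 times its lowest. Both extremes lay within the media with serum, and no medium stood apart. Gm24494, an 81-base RNA in an intron of the same gene, Rabggtb (a subunit of Rab geranylgeranyl transferase), had 12460, 28165 and 29472 in GS, 16379, 25258 and 2926 in DM, and 8330, 46627 and 5587 in NO. Rabggtb itself had 1692 to 3878 over all samples, with 2983, 2409 and 2590 in DM. Its own value in DM replicate 3 was within the range of the other DM replicates.

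Box H/ACA RNAs of about 130 bases could vary in the same way. Snora31, in the intron of the translationally controlled Tpt1, had 6381, 11746 and 11730 in GS, 8961, 7309 and 1193 in DM, and 6816, 26014 and 4714 in NO. Snord83b, at 94 bases, had 27147, 32198 and 35124 in GS, 32689, 35084 and 7908 in DM, and 29943, 37903 and 23319 in NO. Here DM replicate 3 alone stood apart. The steadiest members with a mean above 50 were longer, with a ratio of highest to lowest value of 1.549 for Scarna10 (325 bases), 1.679 for Snora62 (149 bases) and 1.690 for Scarna6 (265 bases).

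Guests of 1 host did not move as a unit. The intron and exon RNAs of Rpsa, the gene of a small-subunit ribosomal protein, gave Gm26448 (203 bases) 9909, 6880 and 18000 in DM, with the highest value in replicate 3. Gm24044 (156 bases) from the same gene had 16351, 15846 and 4364, with the lowest value in replicate 3. Snora62, also from Rpsa, had 1821, 2149 and 3057.

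Replicate spread was wider for these RNAs than for most genes. The median SD of the log2 values within a medium came to 0.52 (GS), 0.81 (DM) and 0.60 (NO), against 0.21, 0.24 and 0.31 over all tested genes. For members of up to 85 bases it was 0.63, 1.18 and 0.97. Restricted to means above 50, it was 0.63, 1.31 and 1.06 for these short RNAs and 0.38, 0.57 and 0.50 for those over 150 bases, against 0.16, 0.19 and 0.24 for all genes at that level. In 212 snRNA, misc_RNA and miRNA rows of up to 120 bases the median deviation in DM replicate 3 was 0.13. These classes were low. Over all lengths, the median of the means was 18.4 for snRNA, 24.1 for misc_RNA and 10.2 for miRNA rows, against 387 for the members. The class median therefore cannot show how abundant short RNAs of other kinds behaved. The abundant Y RNAs, Rny1 (112 bases) and Rny3 (102 bases), were lowest of the DM replicates in replicate 3, at 15423 and 13105. Rn7sk (331 bases), which holds back the elongation factor P-TEFb, had 76843, 78119 and 74689 in DM. Rpph1 (319 bases), the RNA of ribonuclease P, had 83059, 80266 and 260699. Other RNAs of this list did not divide by length in DM replicate 3. Vaultrc5 (143 bases) was highest there, with 524, 688 and 1268 in DM. Rmrp (271 bases) had 26394, 15070 and 14007, and Terc (423 bases) had 355, 509 and 300. In NO replicate 2, where many members peaked, Rny1 had 15963 and Rny3 8837, each between the values of the other NO replicates. Values corrected for RNA length are given with the calls of NO vs GS and NO vs DM.

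Across the 3 media, few snoRNAs or scaRNAs differed. By the moderated F test of limma, 19 of 287 members had an adjusted p below 0.05, that is 6.62% against 23.3% of all genes tested. All 18 of them with a known length had at least 121 bases, and 17 had the ACA motif. None of the 84 members of up to 85 bases and none of the 77 with both C and D motifs passed this test, with 2 and 8 of them at an unadjusted p below 0.05. The short RNAs were also those with the widest replicate spread.

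**Figure D3:**
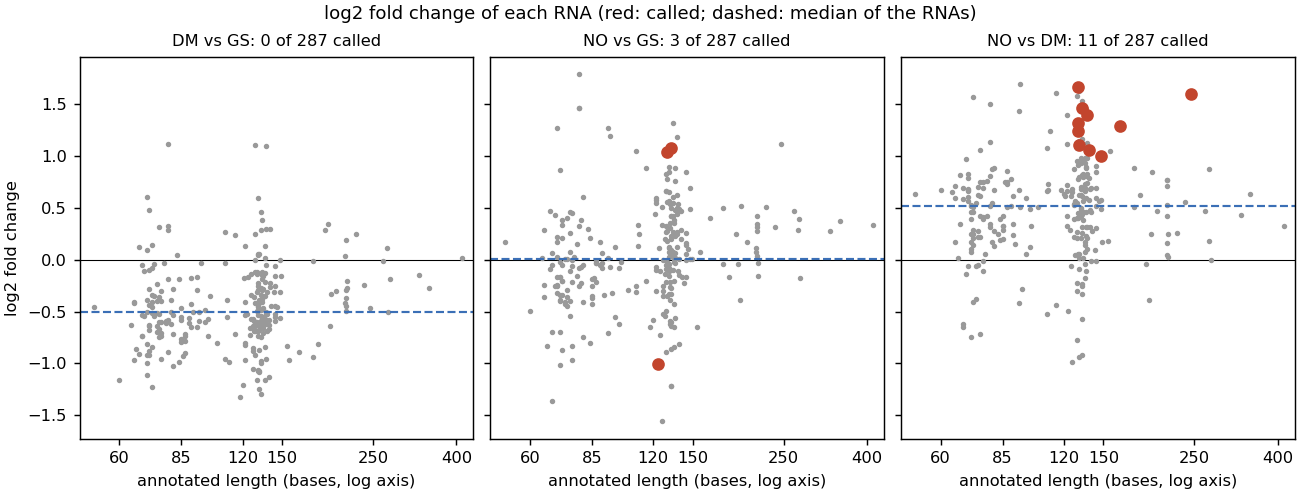
log2 fold change of each of the 284 RNAs with a known length (1 point each) against its annotated length in bases (log axis) in the 3 comparisons, with called RNAs in red and the median of the 287 members as a dashed line. From left to right the medians lay at -0.50, 0.01 and 0.52, and the called RNAs had at least 123 bases. Gm23370, called in NO vs DM, has no length here and is not drawn.

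The comparison of DM with GS asked what changed when cells left the ground state for medium with serum. No member passed both thresholds of limma, an adjusted p below 0.05 and at least a 2-fold change, where 4.20% of all tested genes did. With vooma weights in limma the count was also 0. At an unadjusted p below 0.05 there were 27, or 9.41% against 19.9% of all genes. By adjusted p alone, 2 members (0.697% against 6.69%) passed, and both were lower in DM. Gm22767, typed as a scaRNA, had 1140, 1508 and 1623 in GS and 960, 727 and 628 in DM, without overlap. Its log2 fold change was -0.89 (SE 0.19, adjusted p = 0.0155). Snora28, in an exon of Eif5 by the annotation, had 5640, 7985 and 7414 in GS and 3539, 5030 and 3011 in DM, which gives -0.88 in log2 (SE 0.20, adjusted p = 0.0207). The media did not overlap in 30 members, or 10.5% against 29.6% of all genes, and 28 of these were lower in DM.

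As a class the members were lower in DM, but this rested largely on 1 library. The median log2 fold change was -0.50, with 250 members below 0 and 36 above, while the median over all genes was 0. It was -0.59 for the 23 Snora names, of which 23 were below 0, and -0.59 for the 48 Snord names, of which 44 were. Without DM replicate 3 the medians were -0.09 for all members, -0.22 for Snora names and 0.03 for Snord names. The ACA class then went from -0.48 to -0.18 and the members of up to 85 bases from -0.53 to 0.14. Only in the class over 150 bases did the median move further below 0, from -0.28 to -0.45.

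The comparison of NO with GS covered the combined change of medium and nitric oxide donor. Of 287 members 3 were called, or 1.05% against 11.7% of all genes, and 6 (2.09% against 20.0%) passed by adjusted p alone. Their median log2 fold change was 0.01, with 151 members above 0. Between these media 23 members did not overlap, or 8.01% against 39.1% of all genes.

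Gm25129, a box H/ACA RNA in an intron of Snhg11, had 40, 60 and 45 in GS, 98, 76 and 38 in DM, and 102, 78 and 132 in NO. It rose by 1.08 in log2 from GS to NO (SE 0.35, adjusted p = 0.0496), and the media did not overlap. Gm25500, which overlaps an exon of Taf1d, had 152, 221 and 312 in GS, 165, 196 and 110 in DM, and 154, 98 and 84 in NO. Its log2 fold change from GS to NO was -1.01 (SE 0.32, adjusted p = 0.0437), although NO replicate 1 overlapped with GS. The third, Gm25852, rose in both comparisons with NO and is described with its host. These calls were near the threshold: Gm25129 was called in 7 and Gm25500 in 8 of 23 alternative fits. After the length correction 2 RNAs were called, of which Gm25500 was 1. Without NO replicate 3 there was no call, and without NO replicate 1 there were 8 calls.

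NO and DM differ only by the donor, and this comparison had the most calls. Of 287 members 11 were called, or 3.83% against 8.55% of all genes. All 11 were higher in NO, a direction in which 6.78% of all genes were called. By adjusted p alone there were 23, also all higher, or 8.01% against 14.2%. The media did not overlap in 48 members, 46 of them higher in NO, or 16.7% against 33.4% of all genes. By their motifs 9 of the 11 were box H/ACA RNAs, and 2 of these 9, Gm22767 and Scarna8, belonged to the scaRNA group. Of the 10 with a known length, 8 had 121 to 150 bases. None of the 13 members called in any comparison had a mean of 5 or less in any medium, and the lowest such mean was 23.7. The main fit did not pair NO with DM by replicate number. With that number as a block 12 members were called in NO vs DM, 8 of them among the 11.

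**Figure D4:**
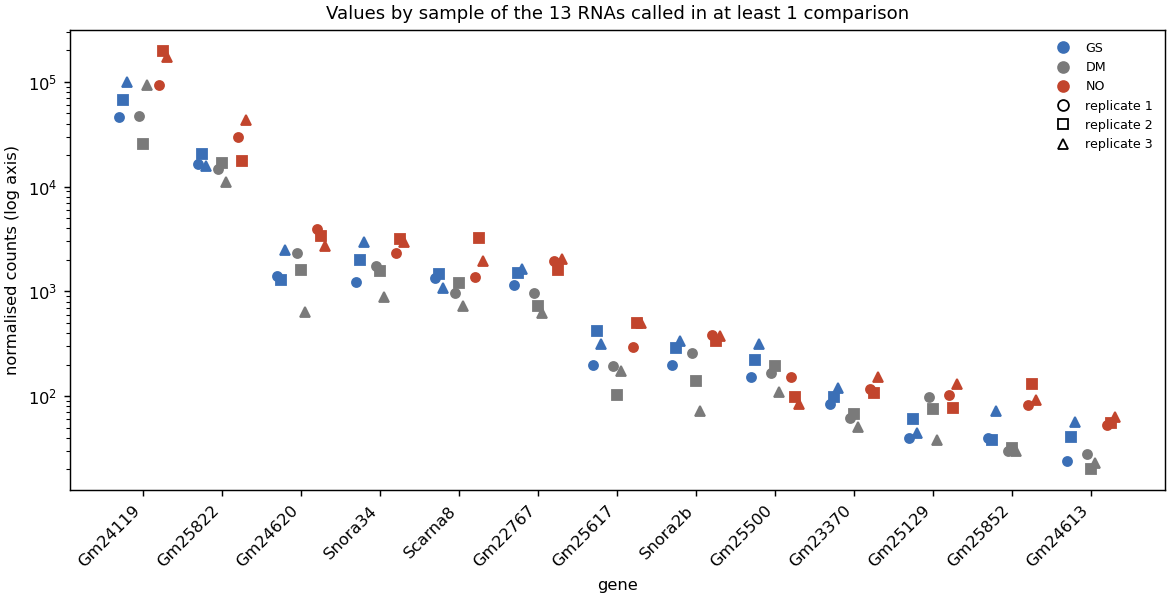
Normalised counts (log axis) by sample of the 13 RNAs called in at least 1 comparison, ordered by mean, with colours for the medium and symbols for the replicate. For Gm22767 the 3 NO values, 1613 to 2055, all lie above the 3 DM values, 628 to 960, while for Gm24119 the NO value of replicate 1, 94169, is close to the DM value of replicate 3, 93811.

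Among the scaRNAs, which guide modification of spliceosomal RNAs, Gm22767 had the smallest adjusted p of all members. It had 1944, 1613 and 2055 in NO against 960, 727 and 628 in DM, a rise of 1.29 in log2 (SE 0.19, adjusted p = 0.00288). Its level in NO overlapped with GS, at 1140 to 1623, and the log2 fold change there was 0.40 (adjusted p = 0.153). Scarna8 had 1353, 1482 and 1082 in GS, 958, 1206 and 723 in DM, and 1360, 3206 and 1936 in NO, and rose by 1.11 from DM (SE 0.28, adjusted p = 0.0243). Of the 21 scaRNAs, 18 were above 0 in NO vs DM, and 2 were called. The median was 0.52, the same as over all members, and it was 0.35 without DM replicate 3 and NO replicate 2. Gm25492, in an intron of Bud23, passed by adjusted p alone with 0.95 (adjusted p = 0.0360).

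Among the box H/ACA RNAs, Gm24119 was the most abundant RNA called. It had 46622, 66805 and 98792 in GS, 47599, 25727 and 93811 in DM, and 94169, 196512 and 172230 in NO, a rise of 1.60 over DM in log2 (SE 0.44, adjusted p = 0.0344). Its host Slc25a3, the mitochondrial phosphate carrier, had 7051, 8253 and 10780 in DM and 8183, 8897 and 9263 in NO, with a log2 fold change of 0.03 (SE 0.16). Here guest and host did not run together. Gm25822 had 14802, 16695 and 11196 in DM and 29772, 17423 and 42948 in NO, a rise of 1.00 in log2 (SE 0.28, adjusted p = 0.0367).

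Kansl2, a subunit of a histone acetyltransferase complex, holds a pair of called RNAs. Snora34, in its intron, had 1223, 1996 and 2954 in GS, 1758, 1557 and 889 in DM, and 2319, 3172 and 2995 in NO, and its log2 fold change over DM was 1.06 (SE 0.31, adjusted p = 0.0429). Snora2b, at an exon of the same gene, had 200, 287 and 340 in GS, 258, 141 and 72 in DM, and 380, 339 and 377 in NO, a rise of 1.40 in log2 (SE 0.37, adjusted p = 0.0287). For both, each NO value was above each DM value, while GS overlapped with DM and also with NO. Kansl2 itself had 1187, 929 and 1173 in DM and 1037, 774 and 1099 in NO, with a log2 fold change of -0.18 (SE 0.16).

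The other called RNAs were Gm25617 in an intron of Gsk3b (1.47, SE 0.32, adjusted p = 0.0140), Gm24620 in an intron of Kif13a (1.32, SE 0.40, adjusted p = 0.0484), Gm24613 (1.24, SE 0.33, adjusted p = 0.0306) and Gm23370 (1.04, SE 0.23, adjusted p = 0.0156). Gm25617 is a guest of the kinase that CHIR99021 in GS inhibits. It had 196, 102 and 173 in DM and 298, 496 and 505 in NO. Gsk3b had 827, 915 and 685 in DM and 920, 1291 and 817 in NO, with a log2 fold change of 0.30 (SE 0.18, adjusted p = 0.272). In the fit with the replicate number as a block, Gm24620 (adjusted p = 0.0524), Gm25822 (0.0524) and Snora34 (0.0529) lost the call.

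The class median in NO vs DM was 0.52, with 250 members above 0 and all 23 Snora names among them, and the median over all genes was 0. The class median moved with the libraries that stood apart, and was 0.10 without DM replicate 3, 0.26 without NO replicate 2 and -0.05 without both. Without both libraries the median of the Snord names went from 0.53 to -0.54 and that of the members of up to 85 bases from 0.41 to -0.82. The Snora names kept a median of 0.38 (0.63 with all samples), the ACA class one of 0.26 (0.61 with all samples) and the members over 150 bases one of 0.36 (0.47 with all samples). Of the 11 calls, 4 remained without DM replicate 3 (Gm22767, Gm24119, Gm25617 and Gm25852). The same 4 with Gm23370 and Gm25822, 6 in all, remained without DM replicate 3 and NO replicate 2 together. After subtraction of a smooth curve on RNA length from each library, 3 remained, namely Gm23370, Gm24119 and Gm25852. After centring each library on the members none remained.

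With these libraries left out, short RNAs appeared on the other side. There were then 30 calls in NO vs DM, 11 higher and 19 lower, where 4.51% of all genes were called. Of the 19 lower ones 16 had up to 85 bases, and none of the 11 higher ones did. Snord45b then had a log2 fold change of -2.56 (adjusted p = 0.00627) and Snord110 one of -1.57 (adjusted p = 0.0136), against 0.17 and -0.65 with all libraries, where neither was called. Snord110 had 5378, 11466 and 1894 in DM and 3106, 4273 and 2264 in NO. With the length correction and all libraries its log2 fold change was -1.07 (adjusted p = 0.0314). These libraries were left out after their values had been seen, and each medium concerned then had 2 samples. Left were DM replicates 1 and 2 and NO replicates 1 and 3, so the replicate numbers no longer matched. Over the members, deviations from the group means of same-numbered NO and DM libraries correlated at 0.201, 0.641 and 0.679. By number, Snord45b went from 7623 to 3200, from 13268 to 26905 and from 540 to 906 between DM and NO. The 4 samples left also differed with length themselves. The median deviation of the shortest class was 0.14 and 0.64 in DM replicates 1 and 2 and -0.41 and -0.31 in NO replicates 1 and 3.

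Gm25852 was the member called in the most alternative fits, and its host changed too. It had 40, 38 and 73 in GS, 30, 32 and 30 in DM, and 82, 130 and 93 in NO, and every NO value was above every GS and DM value. Its log2 fold change was 1.67 over DM (SE 0.30, adjusted p = 0.00684) and 1.04 over GS (SE 0.30, adjusted p = 0.0330), and it was called against DM in 22 of 23 alternative fits and against GS in 11 of 23. Frmd4b, which encodes a scaffold protein with a FERM domain, had 1367, 1373 and 1494 in GS, 237, 278 and 227 in DM, and 557, 1298 and 710 in NO. The host fell by 2.51 in log2 from GS to DM (SE 0.25, adjusted p = 0.000219) and rose by 1.70 from DM to NO (SE 0.25, adjusted p = 0.00295). Guest and host both rose from DM to NO, whereas from GS to DM the change of the guest was -0.63 (SE 0.30, adjusted p = 0.273). From GS to NO the host fell by 0.82 (SE 0.25, adjusted p = 0.0396) while the guest rose. Reads from the unspliced intron of Frmd4b and from Gm25852 cannot be told apart in this table.

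**Figure D5:**
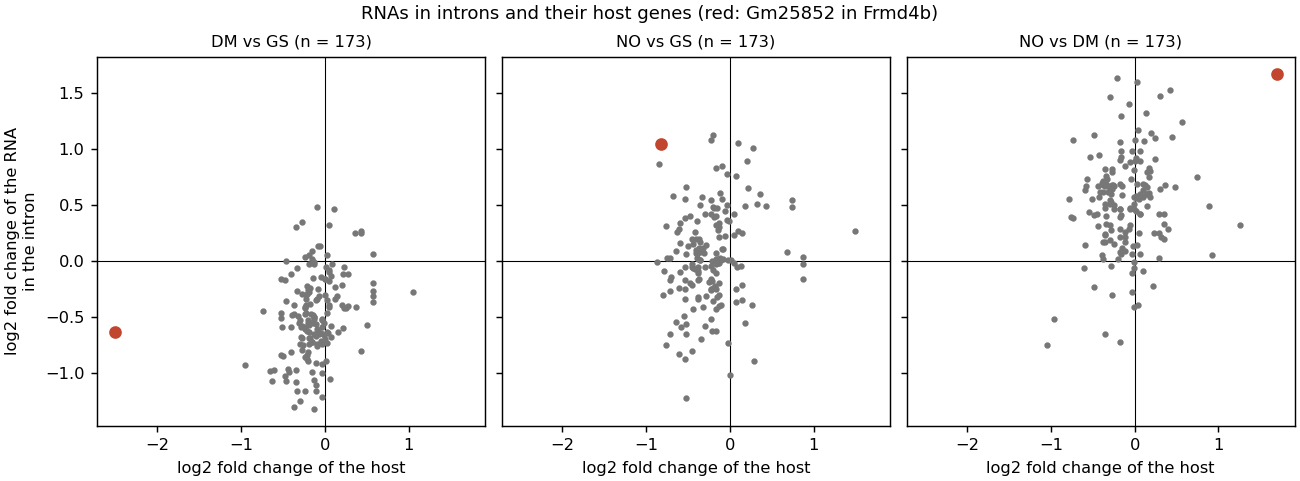
log2 fold change of RNAs in introns (vertical axis) against that of their host gene (horizontal axis) in the 3 comparisons, 1 point for each of 173 RNAs in 139 hosts. Most hosts lie within 1 of 0, and Gm25852 in Frmd4b (red) is far from the rest on the horizontal axis in DM vs GS, at -2.51, and in NO vs DM, at 1.70.

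Over all hosts, guests and hosts ran together only weakly. Across 173 members in introns of 139 tested hosts, Pearson's r between the log2 fold changes was 0.22 for NO vs DM, 0.29 for DM vs GS and 0.18 for NO vs GS. Spearman's rho was 0.13, 0.31 and 0.21 in this order. These are descriptions across genes that share libraries, and hosts with several guests count more than once. The comparisons also share samples. In NO vs DM the median was 0.56 for these guests and -0.15 for their hosts, and the signs were alike in 71 of 173 pairs.

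The other hosts that were called had no called guest. Snrpn, an imprinted gene whose locus carries Snord64 and Snord107, had 1112, 944 and 848 in GS, 2521, 2302 and 3230 in DM, and 1602, 1323 and 1534 in NO, and rose by 1.46 from GS to DM (SE 0.16, adjusted p = 0.000336). Snord64 had 54, 181 and 152 in GS, 175, 227 and 48 in DM, and 110, 373 and 97 in NO. Snord107 had 20, 26 and 61 in GS, 95, 61 and 20 in DM, and 122, 55 and 71 in NO. For both RNAs GS and DM overlapped. Eng (endoglin, a co-receptor for TGF-β ligands and a marker of endothelium) rose from 823, 1067 and 1123 in DM to 1497, 3818 and 2369 in NO, by 1.26 (SE 0.28, adjusted p = 0.0152), and its guest Gm26236, with a mean of 14.1, had a log2 fold change of 0.32.

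Taf1d, a subunit of the RNA polymerase I factor SL1, held the most members. Its 8 guests had means of 32.6 to 1918. Their median log2 fold change was 0.39 for NO vs DM, -0.62 for DM vs GS and -0.24 for NO vs GS. Taf1d, which was not called, had -0.09, -0.56 and -0.66. Gm25500 was the only called guest. Gm24299, at 71 bases, had 517, 811 and 102 in DM and 367, 1422 and 246 in NO. Gm22620, at 133 bases, had 680, 661 and 844 in DM and 925, 1104 and 933 in NO. Length did not divide the guests of this host. Gm24357, at 74 bases, had 1020, 903 and 735 in DM. The longer Gm24455 (131 bases) and Gm25791 (137 bases) fell in DM replicate 3, with 1357, 1351 and 317 and with 1786, 1288 and 554 in DM. The 5 guests of Rian, an imprinted non-coding RNA, included DQ267101, with 751, 1146 and 64 in DM and 346, 1273 and 111 in NO, beside 4831, 4941 and 4537 and then 5300, 3181 and 4435 for Rian.

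Several long non-coding host genes were lower in NO than in GS. The median of all members there was 0.01, but few of them lie in these genes. Of 21 listed, 16 were tested, and 8 were lower in NO than in GS by adjusted p while none was higher. Of all genes tested, 6.64% were lower and 13.4% higher in NO than in GS by this rule. Snhg5 had 1989, 2017 and 2424 in GS, 1461, 1211 and 1212 in DM, and 1102, 612 and 1066 in NO, and with -1.25 (SE 0.21, adjusted p = 0.00234) it was the only one past 2-fold. Gas5, a host of many box C/D RNAs, had 3704, 3539 and 4308 in GS, 3234, 2963 and 2786 in DM, and 2315, 1495 and 2165 in NO, which gives -0.97 in log2 from GS to NO (SE 0.17, adjusted p = 0.00293). Zfas1 was lower by -0.93 (SE 0.14, adjusted p = 0.00150), and Snhg1, Snhg4, Snhg6, Snhg12 and Epb41l4aos by -0.51 to -0.98. No member was assigned to Snhg1, Snhg4, Snhg5 or Gas5 as its host. Snhg6, Snhg12, Zfas1 and Epb41l4aos held 1 member each. The log2 fold changes of these guests from GS to NO were -0.01, 0.23, -0.05 and 0.31. Against DM, 2 of the 16, Gas5 (-0.61) and Zfas1 (-0.46), were lower in NO. In DM vs GS none passed. The median of the list was -0.44 for NO vs GS, -0.29 for NO vs DM and -0.35 for DM vs GS.

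Transcripts of the proteins that bind these RNAs changed by less than 2-fold, and the proteins themselves were not measured. In the box C/D core, 1 of 4, Fbl, was lower in NO, by -0.74 against GS (SE 0.16, adjusted p = 0.00868) and -0.59 against DM (adjusted p = 0.0347). Nop56, Nop58 and Snu13 had -0.34, -0.45 and -0.46 against GS and did not pass. In the box H/ACA core, Dkc1 was lower by -0.71 against GS (SE 0.16, adjusted p = 0.0110) and -0.58 against DM (adjusted p = 0.0366), and Nop10 by -0.89 against DM (adjusted p = 0.0401), while Nhp2 and Gar1 did not pass. Of 11 assembly factors, 2 were lower in NO vs DM, namely Nolc1, a nucleolar and Cajal body chaperone (-0.68, adjusted p = 0.0200), and Naf1, which assembles H/ACA particles (-0.62, adjusted p = 0.0490). Of all genes tested, 5.24% were lower in NO vs DM by adjusted p. In neither core nor assembly list did a gene pass in DM vs GS.

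Of 7 genes of Cajal bodies and telomerase, Tert, the catalytic subunit of telomerase, was higher in NO than in GS by 0.58 (adjusted p = 0.0454), and Gemin5, of the SMN complex, was lower in NO than in DM by -0.60 (adjusted p = 0.0211). Of 10 maturation and turnover factors, 5 were lower in NO than in GS, Dis3, Xrn2, Tent4b, Mphosph6 and Zcchc7, by -0.50 to -0.90, beside the 6.64% of all genes that were lower there, and none passed in the other comparisons. The debranching enzyme Dbr1, which opens intron lariats, had -0.02.

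Among other structured RNAs, 2 of 7 were called, both lower in NO than in GS, where 1.64% of all genes were called lower. Rny1 had 41391, 33548 and 47957 in GS, 27572, 27580 and 15423 in DM, and 22305, 15963 and 14676 in NO, which gives -1.22 in log2 (SE 0.25, adjusted p = 0.00664). Rny3 had 26552, 22964 and 24378 in GS and 14104, 8837 and 6980 in NO, which gives -1.36 in log2 (SE 0.27, adjusted p = 0.00518). Terc, the H/ACA-type RNA of telomerase, had 327, 397 and 204 in GS, 355, 509 and 300 in DM, and 254, 1215 and 320 in NO, with overlap of all media. As classes, the 160 snRNA rows had a median of 0.13, the 127 miRNA rows one of 0.14 and the 63 misc_RNA rows one of 0.11 in NO vs DM, beside 0.52 for the members. This difference between classes, which also differ in level, was not tested.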

How the data were processed

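Total RNA-Seq libraries of mESC in GS, DM and NO, 3 replicates each, were analysed. The authors depleted ribosomal RNA, selected short fragments, sequenced on an Ion Torrent Proton, trimmed with Reaper, aligned to GRCm38 with STAR 2.4.0a and counted reads over exons with featureCounts 1.4.5-p1. Per gene, the authors deposited a normalised score: the read count over the DESeq2 size factor of the library, rounded to a whole number. A count model was therefore not fitted. The value of 1 read was estimated from gaps and doubled values among low values and gave the depth. How the selection of fragments by size alters the values of RNAs of different length was not tested.

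Members, lists and comparisons were chosen with earlier results of these data known. limma 3.58.1 in R 4.3.3 was fitted to log2(value + 1) of all 18156 genes with a mean above 5, with the media as groups and a mean-variance trend. Called genes had a Benjamini-Hochberg adjusted p below 0.05 over all tested genes and at least a 2-fold change. All tests were two-sided. Fold changes on this scale understate changes of low genes. The fit was tested on made-up data with known changes. Those data had the same spread setting for all genes and no shift between libraries with RNA length. They cannot show how the fit performs on the members. Named were the 10 highest members, the called members (at most 6 per comparison and direction by adjusted p), scaRNAs, hosts, listed genes past both thresholds and the rows next to the mean of 5. Snord45b, Snord110, Snord64, Snord107, Snora31, Snora28, Snora62, Gm26236, the guests shown for Rpsa, Taf1d and Rian, the remaining called members and the listed genes under 2-fold were chosen after their values were seen.

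Over all tested genes, deviations from the group means correlated in all same-numbered pairs of NO and DM (0.159, 0.167 and 0.296), with the numbers taken from the labels. Over the members alone these correlations were higher, at 0.201, 0.641 and 0.679. The main fit had no term for this pairing. It entered only through the replicate block, 1 of the alternatives. Hosts, lengths, coordinates and sequences came from GENCODE M21, which differs in release from the annotation of the authors and matched 284 of 287 members. The host was the gene on the same strand that holds the RNA. Alternatives covered the samples, replicate block, minimum mean, pseudocount, fold minimum, moderation, weights and scaling. Leaving out DM replicate 3 with NO replicate 2, and the length correction (lowess with a span of 0.5), alone and with the block, were chosen after seeing the data.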

Additional observations from a re-analysis of the deposited data

How the results depend on the processing

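Over all tested genes, replicate numbers did not pair DM with GS (-0.178, 0.022 and -0.232) or NO with GS (-0.046, 0.05 and -0.106). Over the members the signs were mixed, with -0.465, 0.301 and -0.389 for DM with GS and 0.139, 0.347 and -0.225 for NO with GS. With the replicate block there were 0, 3 and 12 calls in DM vs GS, NO vs GS and NO vs DM, and 20 members differed by the F test. Of the main calls 1 of 3 in NO vs GS and 8 of 11 in NO vs DM were among them. Over leaving out each sample in turn, calls ranged from 0 to 3 in DM vs GS, from 0 to 8 in NO vs GS, from 2 to 25 in NO vs DM and from 5 to 31 for the F test, and the class medians from -0.69 to -0.09, from -0.16 to 0.18 and from 0.10 to 0.77. In NO vs DM the count was 6 without DM replicate 2, 25 without NO replicate 1 and 2 without NO replicate 3. In NO vs GS it was 1 without any one of the GS replicates or DM replicate 2, 5 without DM replicate 3, 8 without NO replicate 1 and 0 without NO replicate 3. By the F test it was 12 without GS replicate 2, 9 without DM replicate 2, 31 without NO replicate 1 and 5 without NO replicate 3. In DM vs GS it was 3 without GS replicate 1 or DM replicate 1. An arm of 2 samples was fitted with the spread of all groups. The causes were not tested.

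In DM vs GS, calls were 1 with only the 6 samples compared, 1 with no trend, 2 without DM replicate 3 and NO replicate 2, and 2 with no minimum fold. In NO vs GS they were 0 with no minimum mean, 1 with a pseudocount of 5, 1 with vooma weights, 1 with class centring, 20 without DM replicate 3 and NO replicate 2, 6 with no minimum fold and 0 with a log2 minimum of 2. In NO vs DM they were 6 with only the 6 samples compared, 6 with no minimum mean, 5 with no trend, 17 with equal totals, 0 with class centring, 30 without DM replicate 3 and NO replicate 2, 6 with the length correction, 5 with the length correction and replicate block, 23 with no minimum fold and 0 with a log2 minimum of 2. The F test gave 11 with no minimum mean, 10 with no trend, 1 with class centring, 60 without DM replicate 3 and NO replicate 2, 10 with the length correction and 12 with it and the replicate block. The class median in NO vs DM was -0.05 without DM replicate 3 and NO replicate 2, and class centring shifts all genes by -0.512 there. Of 894 refits of named members, 738 stayed on the same side of the threshold (11 of them, none called, with the other sign), 144 lost the call, 12 gained one and none changed sign as a call.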
